A study of Homo sapiens with 8 samples.

Results

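The proteasome genes described here were the rows of the count table whose symbol is PSMA, PSMB, PSMC or PSMD followed by a number, with a mean of at least 1 CPM (counts per 1000000 counts of a library) over all 8 libraries. Of 58870 rows, 39 symbols matched and 37 passed the limit, 34 constitutive subunits or their assembly chaperones and the 3 immunoproteasome subunits PSMB8, PSMB9 and PSMB10. The other two, PSMA8, a testis-specific alpha subunit, and PSMB11, the catalytic subunit of the thymus proteasome, had 0 counts in every library. A count of 0 in 130811593 reads allows up to 3 counts, or 0.0229 CPM. The lowest member, PSMB10, stood at 22.1 CPM, so no member lay near the limit, and all 37 were among the 13860 genes tested.

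The RNA came from Panc 10.05, a long-established line of human pancreatic ductal adenocarcinoma cells. Control libraries 1 to 4 came from control Panc 10.05 cells and ELAPOR1 libraries 1 to 4 from Panc 10.05 cells that the labels name as overexpressing ELAPOR1, a transmembrane protein of endosomes and lysosomes. The comparison asks which transcripts differ when ELAPOR1 is overexpressed. The vector and promoter of the overexpression, whether the cells were a clone or a pool, and what the control cells carried are not given in the sources used here. The labels do not say whether libraries of a group came from separate cultures, so the p-values measure the spread between these libraries, which may be technical.

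The proteasome is the protease that degrades proteins marked with ubiquitin. Its barrel, the 20S core particle, is built of outer rings of alpha subunits, which form the gate, and inner rings of beta subunits, of which PSMB5, PSMB6 and PSMB7 carry the active sites. The 19S regulatory particle caps the barrel: its base holds a ring of ATPases (PSMC genes) that unfold and feed in the substrate, and its lid removes the ubiquitin chain. In cells exposed to interferon, PSMB8, PSMB9 and PSMB10 take the places of PSMB5, PSMB6 and PSMB7, which changes the peptides offered to class I antigen presentation, and PSMB8 and PSMB9 lie in the major histocompatibility complex on chromosome 6 next to the peptide transporter genes. When proteasome activity falls short, the transcription factor NFE2L1, paired with a small MAF protein, is known to raise the transcription of constitutive subunits together through antioxidant response elements.

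The promoters of the 3 immunoproteasome subunits and of the 2 members with the largest rise are shown because the results set these genes against each other. Each is the RefSeq window (GRCh38.p14) of 250 bases before to 50 bases after a transcript start of the gene, written 5′ to 3′ on the strand of the gene. For each of these genes the RefSeq start used lies inside the gene span that GENCODE 29 gives, for PSMD3 only by a few bases. PSMB8 is on the minus strand at chr6:32843998-32844297, PSMB9 on the plus strand at chr6:32853942-32854241 and PSMB10 on the minus strand at chr16:67936801-67937100. PSMD3 is on the plus strand at chr17:39980557-39980856 and PSMC4 on the plus strand at chr19:39970915-39971214. Capitals mark matches, on either strand, to the core of the antioxidant response element (TGACNNNGC), the interferon-stimulated response element (GAAA, any 2 bases, GAAA) or the gamma-activated site, a motif of the interferon gamma response (TTCNNNGAA). No match in these 5 windows overlapped another.
PSMB8: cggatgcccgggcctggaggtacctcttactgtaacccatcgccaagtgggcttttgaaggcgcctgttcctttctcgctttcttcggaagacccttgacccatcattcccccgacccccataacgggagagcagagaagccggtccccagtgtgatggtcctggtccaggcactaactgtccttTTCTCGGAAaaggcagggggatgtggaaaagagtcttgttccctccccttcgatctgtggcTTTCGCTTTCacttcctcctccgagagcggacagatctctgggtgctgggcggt
PSMB9: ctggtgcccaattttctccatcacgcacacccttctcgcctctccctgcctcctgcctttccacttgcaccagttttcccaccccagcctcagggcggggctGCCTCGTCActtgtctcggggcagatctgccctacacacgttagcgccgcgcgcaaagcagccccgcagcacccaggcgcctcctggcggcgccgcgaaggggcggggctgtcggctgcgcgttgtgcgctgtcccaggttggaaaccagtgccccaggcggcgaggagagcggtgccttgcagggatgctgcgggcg
PSMB10: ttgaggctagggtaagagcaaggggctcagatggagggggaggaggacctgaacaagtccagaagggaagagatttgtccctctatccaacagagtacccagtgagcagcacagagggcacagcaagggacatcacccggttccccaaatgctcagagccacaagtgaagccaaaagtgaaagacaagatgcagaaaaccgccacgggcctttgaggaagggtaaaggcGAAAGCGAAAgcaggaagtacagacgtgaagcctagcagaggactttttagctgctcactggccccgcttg
PSMD3: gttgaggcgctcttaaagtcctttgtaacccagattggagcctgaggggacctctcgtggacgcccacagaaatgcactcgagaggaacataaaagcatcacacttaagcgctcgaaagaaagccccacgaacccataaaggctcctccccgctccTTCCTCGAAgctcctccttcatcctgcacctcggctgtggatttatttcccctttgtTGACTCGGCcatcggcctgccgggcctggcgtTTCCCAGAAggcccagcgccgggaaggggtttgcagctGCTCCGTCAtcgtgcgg
PSMC4: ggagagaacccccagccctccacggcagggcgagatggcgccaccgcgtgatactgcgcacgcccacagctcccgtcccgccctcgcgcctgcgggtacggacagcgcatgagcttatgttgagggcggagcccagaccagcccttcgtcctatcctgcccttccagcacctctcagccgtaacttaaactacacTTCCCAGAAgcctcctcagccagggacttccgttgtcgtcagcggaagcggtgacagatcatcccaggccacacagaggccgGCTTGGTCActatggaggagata
In the PSMB8 window the match at bases 186 to 194 is to the gamma-activated site and that at bases 247 to 256 to the interferon-stimulated response element, counted from 1 at the 5′ end. Of the 2 windows the table holds for PSMB8, the one with more matches was printed. PSMB9 had a match to the antioxidant response element core and none to the other motifs, and PSMB10 had a match to the interferon-stimulated response element. PSMD3 held 2 matches to the antioxidant response element core and 2 to the gamma-activated site, and PSMC4 held 1 of each.

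Windows were found for 32 of the 37 members. The others were PSMA7, PSMD4, PSMB6, PSMB7 and PSMB1. The antioxidant response element core was present in 10 members, 31.2% of the 32, and in 16.1% of the 27305 genes with a window of the same length. Of the members holding it, 6 were among 17 that rose, 2 among 2 that fell and 2 among 13 that did not pass the test. The interferon-stimulated response element was present in 4 members (PSMA4, PSMB4, PSMB8 and PSMB10), 12.5%, against 4.38% of all genes. The gamma-activated site was present in 6 members (PSMA2, PSMB5, PSMB8, PSMC4, PSMD2 and PSMD3), 18.8%, against 9.38% of all genes. A gene was counted if any of its windows matched, and the shares were not adjusted for the number of windows per gene. These are matches of letters, not sites of binding, and no test of the difference in shares was made.

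ELAPOR1, listed in the table under its older symbol KIAA1324, had 1 to 4 counts in each control library and 425 to 430.0 CPM in each ELAPOR1 library, a log2 fold change of 11.43 ± 0.0856 (SE, n = 4 per group, adjusted p = 3.5e-43). Total counts ran from 16558600 to 18128757 in control and from 13765509 to 17258166 in ELAPOR1 libraries. All 6 epithelial markers were expressed, with summed levels of 11929 to 13196 CPM in control and 11159 to 11510 CPM in ELAPOR1 libraries, and the 4 acinar markers had 0 counts. Most of the epithelial sum was KRT8 and KRT18, which fell by 0.16 and 0.36 on the log2 scale, while KRT7, KRT19 and CDH1 rose by 0.31, 0.25 and 0.11 and EPCAM did not pass. Fibroblast markers summed to 2.95 to 4.32 CPM in control and 2.71 to 3.19 CPM in ELAPOR1 libraries, with COL1A2, DCN and LUM at 0. Leukocyte markers summed to 81.8 to 88.0 and 72.7 to 78.9 CPM, nearly all of it CD68, a lysosomal protein, with CD3E and NKG7 at 0. Endothelial markers summed to 1.62 to 2.13 and 0.576 to 0.998 CPM. In these bulk libraries, a change in every cell and a change in the share of cells that express a gene cannot be told apart.

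Across the 37 members, 17 rose in ELAPOR1 libraries, 2 fell and 18 did not pass the test (edgeR quasi-likelihood test, Benjamini-Hochberg adjusted p under 0.05 over all tested genes). Of all 13860 genes, 44.7% passed, 22.6% higher and 22.1% lower. The share of members that passed, 51.4%, was near the 56.3% of the 7258 genes whose mean CPM lay within the range of the members. Members were called higher in 45.9% of cases, against 30.1% of those genes. The median log2 fold change was 0.09 over the members, against 0.01 over the genes within that range and 0.00087 over all genes. The range ran from 22.1 to 658 CPM, and genes within it were not matched to the members in level. In 14 members all ELAPOR1 libraries lay above all control libraries in CPM, which held for 20.0% of all genes.

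Calls and median changes are given here by place in the particle. Among the 17 members in the regulatory particle, 13 rose and none fell, with a median log2 fold change of 0.18 and all 17 estimates above 0. Regulatory particle proteins with other symbols, such as SEM1 and ADRM1, are not in this count. Among the 14 constitutive subunits of the core particle, 3 rose (PSMB2, PSMB3 and PSMA3), 1 fell (PSMA4) and 10 did not pass, with a median of 0.04. None of the 3 immunoproteasome subunits passed the test. The difference between the regulatory and the core particle was not tested, and each of the 13 rises in the regulatory particle was by less than 1.5-fold.

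**Figure D1:**
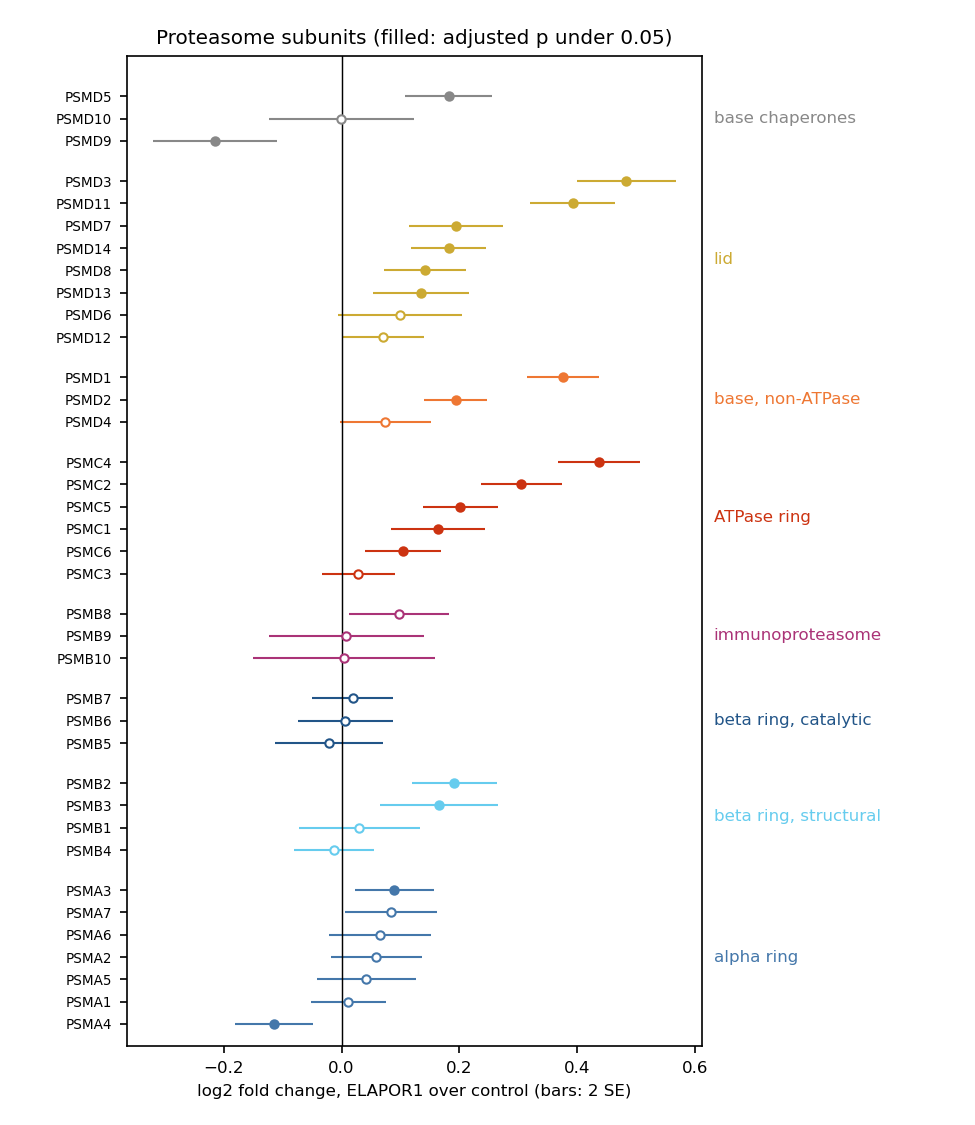
Log2 fold change of each of the 37 proteasome genes, ELAPOR1 over control, on the horizontal axis, grouped by place in the particle; bars span 2 SE each way and filled points passed the adjusted p limit of 0.05. Points of the ATPase ring, base and lid lie right of 0, up to 0.48 for PSMD3, while those of PSMB5, PSMB6, PSMB7, PSMB9 and PSMB10 lie between -0.02 and 0.02 and PSMB8 lies at 0.10.

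The largest rise was that of PSMD3, a scaffold subunit of the lid (chr17:39980797-39997960, GRCh38, GENCODE 29). Its level in control libraries 1 to 4 was 80.3, 86.4, 79.0 and 87.7 CPM, and in ELAPOR1 libraries 1 to 4 it was 124, 115, 112 and 115 CPM. Every ELAPOR1 library lay above every control library, with ELAPOR1 library 1 the highest. Group means were 83.4 ± 4.30 CPM in control and 116 ± 4.98 CPM in ELAPOR1 libraries (SD, 4 libraries each). The log2 fold change was 0.48 ± 0.0419 (SE, adjusted p = 1.5e-11), or 39.9% more.

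PSMD11, the lid subunit that clamps the lid to the base and core (chr17:32444261-32483318), gave 111, 108, 112 and 104 CPM in the control and 139.8, 145, 145 and 142 CPM in the ELAPOR1 libraries. The groups were well separated and the 4 ELAPOR1 libraries close together. PSMD11 rose by 0.39 ± 0.0358 on the log2 scale (SE, adjusted p = 5.0e-11). Of the other 6 lid subunits, 4 rose: PSMD7 by 0.19, PSMD14, the deubiquitinase that cuts the chain from the substrate, by 0.18, PSMD8 by 0.14 and PSMD13 by 0.13. For PSMD8 and PSMD13 the CPM of the groups overlapped. PSMD12 and PSMD6 did not pass, with log2 fold changes of 0.07 and 0.10 (adjusted p = 0.0963 and 0.126), though PSMD12 passed without control library 1 (adjusted p = 0.0104).

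The ATPase ring had 5 of 6 subunits higher, with log2 fold changes from 0.03 to 0.44 over the ring. PSMC4 (chr19:39971005-39981441) stood at 117, 119, 121 and 119 CPM in control libraries and at 165, 166, 156 and 158 CPM in ELAPOR1 libraries. Its control libraries lay within a narrow band, far below the lowest ELAPOR1 library. The log2 fold change was 0.44 ± 0.0346 (SE, adjusted p = 1.7e-12). PSMC2 (chr7:103344254-103369395) went from 138, 134, 132 and 137 CPM to 172, 162, 172 and 163 CPM. Its groups did not overlap either, and it rose by 0.30 ± 0.0344 on the log2 scale (SE, adjusted p = 5.3e-09). PSMC5 rose by 0.20, PSMC1 by 0.16 and PSMC6 by 0.10. PSMC3, at 255 ± 8.38 CPM in control and 260.2 ± 4.21 CPM in ELAPOR1 libraries, did not pass (adjusted p = 0.485).

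Of the base subunits that are not ATPases, PSMD1, the larger scaffold (chr2:231056864-231172827), had 187, 187, 183 and 183 CPM in control and 240.0, 238, 237 and 244 CPM in ELAPOR1 libraries. Libraries within a group differed little, and the groups stood far apart. The log2 fold change was 0.38 ± 0.0304 (SE, adjusted p = 2.8e-12). PSMD2, the scaffold on which ubiquitin-like shuttle proteins dock and the most abundant member in CPM, rose from 614 to 702 CPM (log2 fold change 0.19, adjusted p = 2.6e-07). PSMD4, a ubiquitin receptor, did not pass at 0.07 (adjusted p = 0.122), but did without control library 4 (adjusted p = 0.00982).

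**Figure D2:**
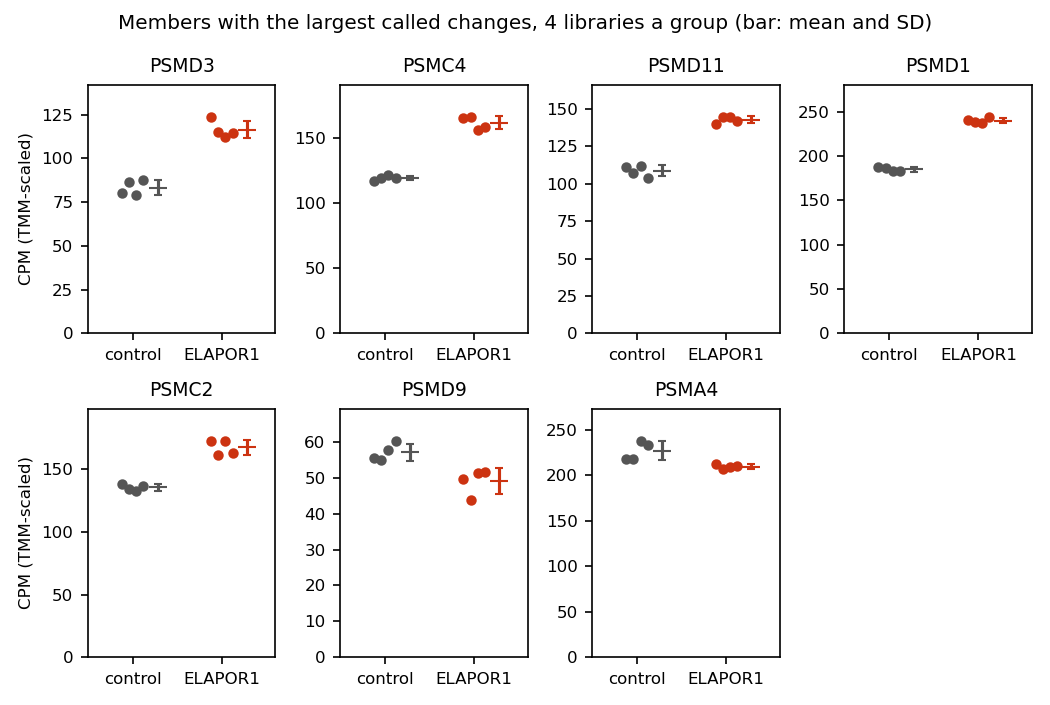
CPM (scaled by TMM) of the members with the largest rises and of the 2 that fell, 1 panel per gene; points are single libraries and horizontal lines are group means, with bars of 1 SD (n = 4 per group). In PSMD3, PSMC4, PSMD11, PSMD1 and PSMC2 every ELAPOR1 point lies above every control point, and in PSMD9 and PSMA4 every ELAPOR1 point lies below.

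The 3 members that help assemble the base and then leave it did not share a direction. PSMD9 (chr12:121888731-121918297), a chaperone of the ATPase ring, had 55.4, 54.8, 57.5 and 60.2 CPM in control and 49.7, 43.7, 51.3 and 51.5 CPM in ELAPOR1 libraries. All ELAPOR1 libraries lay below the control libraries, and ELAPOR1 library 2 was the lowest. PSMD9 fell by 0.22 ± 0.0527 on the log2 scale (SE, adjusted p = 0.00108). PSMD5, a second chaperone, rose by 0.18 (adjusted p = 1.2e-04). PSMD10, also known as gankyrin, was at 38.2 ± 3.12 CPM in control and 38.1 ± 2.50 CPM in ELAPOR1 libraries (adjusted p = 0.997).

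In the alpha ring, which holds the gate of the core, 1 of 7 subunits rose and 1 fell. PSMA4 (chr15:78540405-78552419) stood at 218, 219, 238 and 234 CPM in control and 213, 207, 209 and 210.3 CPM in ELAPOR1 libraries. The ELAPOR1 libraries were all lower, though the nearest libraries of the groups were close and the control libraries formed a lower and a higher pair. PSMA4 fell by 0.11 ± 0.0331 on the log2 scale (SE, adjusted p = 0.00496). PSMA3 rose by 0.09 (adjusted p = 0.0284), but did not pass without ELAPOR1 library 1 or 4 or without control library 1 or 2 (adjusted p from 0.0682 to 0.0911). The other 5 had log2 fold changes from 0.01 (PSMA1) to 0.08 (PSMA7), and PSMA7 passed without ELAPOR1 library 3 (adjusted p = 0.0406) or without control library 4 (adjusted p = 0.00900). Among the beta subunits without an active site, PSMB2 rose by 0.19 (adjusted p = 4.5e-05) and PSMB3 by 0.17 (adjusted p = 0.00816), the latter with overlapping groups. PSMB1 and PSMB4 did not pass, at 0.03 and -0.01.

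The catalytic subunits of the constitutive core showed no call in either direction, and with edgeR none had an unadjusted p under 0.05. DESeq2 and limma-voom gave the same count of 0 at both limits. PSMB5, the chymotrypsin-like subunit, had 75.3, 89.4, 84.8 and 84.4 CPM in control and 83.2, 78.8, 84.7 and 82.1 CPM in ELAPOR1 libraries. PSMB6, the caspase-like subunit, had 92.7, 98.2, 97.7 and 104 CPM and 100.3, 96.7, 97.9 and 99.6 CPM. PSMB7, the trypsin-like subunit, had 217, 235, 225 and 246 CPM and 239, 236, 227 and 233 CPM. In all 3 genes control library 1 was the lowest library and the ELAPOR1 libraries lay within the range of the controls. The log2 fold changes were -0.02, 0.01 and 0.02, with intervals of 2 SE of -0.11 to 0.07, -0.07 to 0.09 and -0.05 to 0.09.

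PSMB8 (chr6:32840717-32844703, minus strand), the counterpart of PSMB5, had 83.8, 90.0, 89.7 and 89.0 CPM in control and 100.4, 96.0, 90.9 and 89.8 CPM in ELAPOR1 libraries. ELAPOR1 libraries 1, 2 and 3 were above all controls, while ELAPOR1 library 4 lay among them and control library 1 stood below the other controls. Group means were 88.1 ± 2.92 CPM in control and 94.3 ± 4.87 CPM in ELAPOR1 libraries (SD, 4 libraries each), and the log2 fold change of 0.10 ± 0.0421 (SE) had an edgeR adjusted p of 0.0583, short of the limit, with an interval of 2 SE from 0.01 to 0.18. Without control library 1 it was 0.07 (adjusted p = 0.182), whereas it passed without ELAPOR1 library 3 (0.11, adjusted p = 0.0479) or without ELAPOR1 library 4 (0.12, adjusted p = 0.0347).

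PSMB9 (chr6:32844136-32859585, plus strand), the counterpart of PSMB6, had 24.0, 25.6, 24.7 and 27.3 CPM in control and 26.5, 25.6, 24.7 and 25.3 CPM in ELAPOR1 libraries. PSMB10 (chr16:67934502-67937087, minus strand), the counterpart of PSMB7, had 19.02, 21.8, 22.7 and 24.8 CPM and 22.7, 20.8, 24.0 and 21.1 CPM. In both genes the ELAPOR1 libraries lay within the range of the controls. The log2 fold changes were 0.01 (interval of 2 SE -0.12 to 0.14, edgeR adjusted p = 0.932) and 0.00 (-0.15 to 0.16, adjusted p = 0.973). Of the immunoproteasome subunits, 0 passed with edgeR, DESeq2 or limma-voom, and 1, PSMB8, had an unadjusted p under 0.05 with each.

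**Figure D3:**
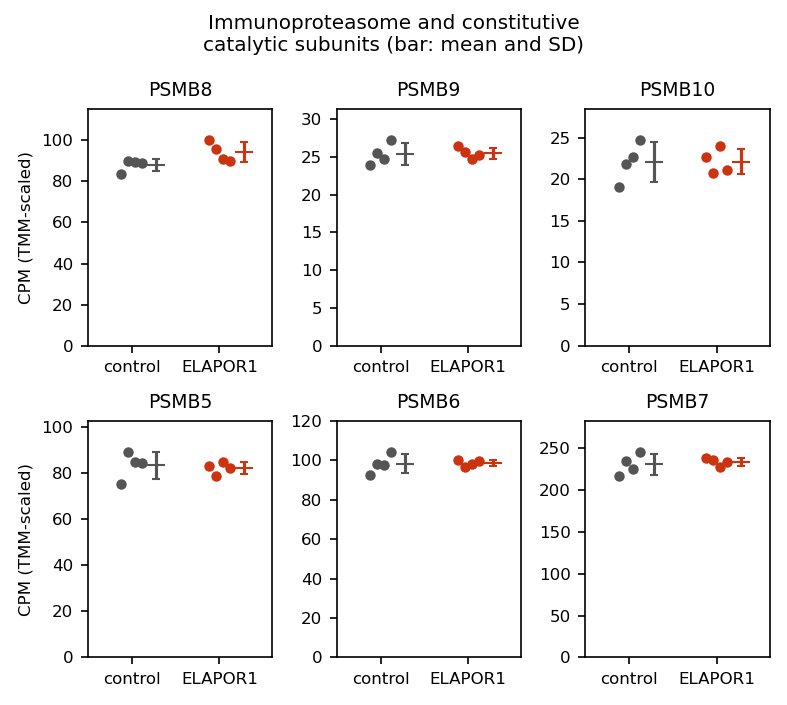
CPM (scaled by TMM) of the immunoproteasome subunits PSMB8, PSMB9 and PSMB10 and of their constitutive counterparts PSMB5, PSMB6 and PSMB7; points are single libraries and horizontal lines are group means, with bars of 1 SD (n = 4 per group). The points of the 2 groups overlap in each of the 6 panels.

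Within each library the ratio of an immunoproteasome subunit to its counterpart does not depend on library scaling. The count ratio of PSMB8 to PSMB5 was 1.11, 1.01, 1.06 and 1.05 in control and 1.21, 1.22, 1.07 and 1.09 in ELAPOR1 libraries, a log2 change of 0.12 with overlapping groups. The ratio of PSMB9 to PSMB6 averaged 0.259 in both groups (SD 0.00400 and 0.00643, n = 4 each). For PSMB10 over PSMB7 the control mean was 0.0955 (SD 0.00635) and the ELAPOR1 mean 0.0947 (SD 0.00765). Per kilobase of exon, with the union of all annotated exons as length, PSMB8 stood at 62.3% of PSMB5 in control and 67.6% in ELAPOR1 libraries. PSMB9 stood at 12.2% of PSMB6 in both groups, and PSMB10 at 9.21% and 9.13% of PSMB7. The lengths were 2997 bases for PSMB8 and 1765 for PSMB5, and 3072 for PSMB9 and 1448 for PSMB6. They were 1853 for PSMB10 and 1787 for PSMB7. Which transcripts the cells used was not determined, so these percentages depend on the annotation. On these lengths PSMB8 was the immunoproteasome subunit nearest in level to its counterpart.

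Across the members, levels in CPM per kilobase of exon, averaged over all libraries, ran from 5.85 for PSMD6 to 130.0 for PSMB7. PSMD2 (121), PSMC3 (113) and PSMA7 (110) followed PSMB7 in the order, and PSMD9 (6.04), PSMB9 (8.29) and PSMB10 (11.9) stood just above PSMD6. The order depends on the length used: with the longest transcript, PSMB4 moved from rank 5 to rank 11, and PSMB7 stayed first.

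The constitutive subunits also varied among control libraries. The median over the 34 of the log2 level minus the control mean was -0.05, -0.0045, 0.01 and 0.05 in control libraries 1 to 4 and 0.13, 0.12, 0.06 and 0.10 in ELAPOR1 libraries 1 to 4. Every ELAPOR1 library was above every control library, but ELAPOR1 library 3 only just above control library 4. Transcript length moved with the groups and also among control libraries. Over all tested genes the median log2 fold change was -0.14 for genes under 1000 bases and 0.04 for those over 5000 bases. For those over 5000 bases, the median log2 level minus the control mean was 0.0488 in control library 1 and -0.0475 in control library 4. In the ELAPOR1 libraries it was 0.0278 to 0.0455. For genes under 1000 bases it was -0.0619 in control library 1 and -0.0882 to -0.120 in ELAPOR1 libraries. The median length of the longest transcript was 1733 bases for the constitutive core subunits and 2939 bases for the regulatory particle.

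After removal of smooth trends against GC content and length in each library, 24 members were higher and 2 lower. Of all genes, 46.8% then passed, 24.0% higher and 22.8% lower. The constitutive core then had 7 of 14 higher and 1 lower with a median of 0.06, and the regulatory particle 15 of 17 higher with a median of 0.20. PSMB6 and PSMB7 became called, at 0.12 and 0.10 (adjusted p = 0.00473 and 0.00121), and so did PSMB8 at 0.12 (adjusted p = 0.00698). The other new calls were PSMA7 at 0.19 (adjusted p = 3.3e-07) and PSMD4 at 0.14 (adjusted p = 1.5e-04). They also included PSMC3 at 0.10 (adjusted p = 0.00146) and PSMA1 at 0.06 (adjusted p = 0.0481). PSMB5, PSMB9 and PSMB10 did not pass, at 0.04, 0.01 and 0.12. The absence of calls among the catalytic subunits thus held only without this step for PSMB6 and PSMB7, while the larger median of the regulatory particle was present with and without it.

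**Figure D4:**
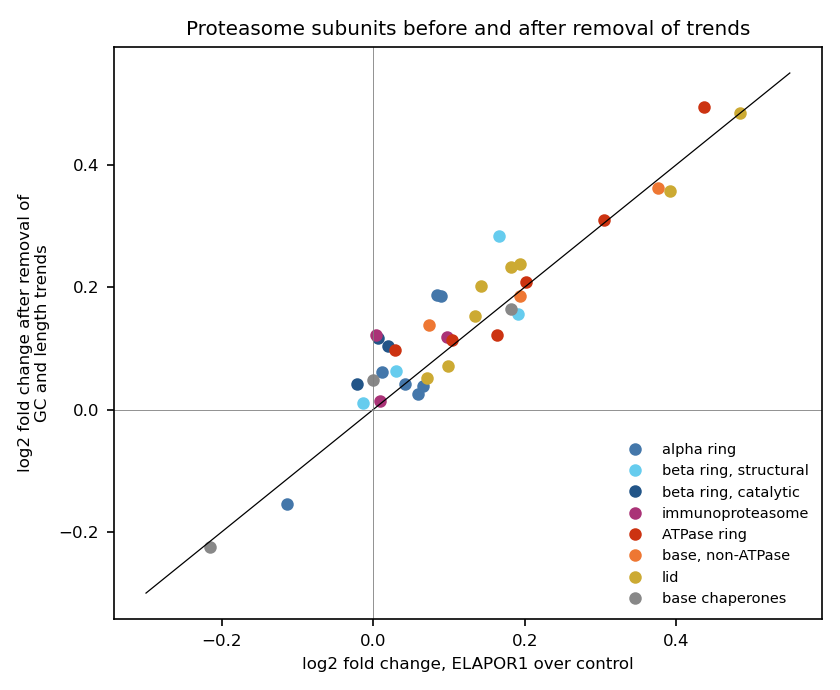
Log2 fold change of each member, ELAPOR1 over control, as fitted (horizontal axis) and after removal of GC and length trends (vertical axis); each point is a gene, coloured by place in the particle, and the diagonal marks equal values. PSMB6, PSMB7, PSMA7, PSMA3 and PSMB3 of the core particle lie clearly above the diagonal, and PSMD3 and PSMC4 are highest on both axes.

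Counts of calls in this and the following lists stand beside 22.6% higher and 22.1% lower over all tested genes, and no list was tested. Among the caps and inhibitor that bind the core in place of the 19S particle, 4 of 5 rose. PSME3, which forms the nuclear PA28 gamma cap, had 161, 157, 143 and 147 CPM in control and 215, 219, 215 and 220.4 CPM in ELAPOR1 libraries, with no overlap. It rose by 0.52 ± 0.0353 on the log2 scale (SE, adjusted p = 4.5e-14), above the rise of any member. PSME2, a subunit of the interferon-inducible PA28 cap, rose from 83.5 to 98.0 CPM (log2 fold change 0.23, adjusted p = 5.8e-05). Its ring partner PSME1, named here after its values were seen, stood at 70.7 ± 5.29 CPM in control and 70.1 ± 3.29 CPM in ELAPOR1 libraries and did not pass (adjusted p = 0.883).

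Of the 5 chaperones that assemble the core particle, none rose, 2 fell and 3 did not pass. PSMG2 fell by 0.33 (from 83.3 to 66.3 CPM, adjusted p = 5.7e-08) and PSMG4 by 0.33 (from 21.5 to 17.0 CPM, adjusted p = 5.1e-04), although their partners in the chaperone pairs, PSMG1 and PSMG3, did not pass. Of 8 other proteins that belong to the 19S particle or bind it, 3 rose and 1 fell, where 44.7% of all genes passed. SEM1, named after its values were seen, did not pass at -0.04 (adjusted p = 0.432). ADRM1, a ubiquitin receptor of the base, rose by 0.40 (from 103 to 136 CPM, adjusted p = 5.2e-10). PAAF1, another chaperone of the ATPase ring, fell by 0.56 (from 17.8 to 12.1 CPM, adjusted p = 1.2e-06).

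The list of NFE2L1, NFE2L2 and the factors that process or bind NFE2L1 had 2 higher, 3 lower and 2 not called of 7. NFE2L1 itself, named after its values were seen, rose by 0.21 (from 84.6 to 97.8 CPM, adjusted p = 8.5e-05). The other higher gene was NFE2L2, at 0.16 (adjusted p = 4.7e-04), and DDI2 and NGLY1 were not called. These were also named after their values were seen. The small MAF partners MAFK and MAFG fell by 0.34 and 0.34 (adjusted p = 8.7e-07 and 2.8e-08). Of 14 genes for ubiquitin, its activation and its delivery, 8 rose, 3 fell and 3 did not pass. Over all genes 22.6% were higher and 22.1% lower. RPS27A, which encodes ubiquitin fused to a ribosomal protein, fell by 0.30 (adjusted p = 1.3e-09), and UBQLN4, a shuttle protein, rose by 0.16 (adjusted p = 0.00168).

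Of 5 regulators linked to the immunoproteasome genes under interferon, 2 rose, 1 fell and 2 did not pass, where 44.7% of all genes passed. IRF9, a subunit of the complex that binds interferon-stimulated response elements, had 19.2, 18.2, 21.2 and 22.3 CPM in control and 30.9, 31.7, 29.01 and 28.7 CPM in ELAPOR1 libraries, with no overlap. It rose by 0.57 ± 0.0707 on the log2 scale (SE, adjusted p = 3.3e-08). IRF1, a transcription factor that binds interferon response elements of immunoproteasome genes, rose by 0.36 (from 32.7 to 42.0 CPM, adjusted p = 2.6e-06). The gene that fell was STAT2, named after its values were seen, by 0.14 (from 82.5 to 74.7 CPM, adjusted p = 0.00664). In the same libraries PSMB8, PSMB9 and PSMB10 did not pass, with log2 fold changes of 0.10, 0.01 and 0.00.

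In the class I peptide loading list, which takes up the peptides that proteasomes produce, 1 of 10 rose, 4 fell and 5 did not pass. The share of all genes that passed was 44.7%. TAP2, a peptide transporter subunit whose gene adjoins PSMB8, rose by 0.35 (from 133 to 169.6 CPM, adjusted p = 3.7e-10). TAPBP, which bridges the transporter and class I molecules, fell by 0.35 (from 169.8 to 133 CPM, adjusted p = 5.3e-10). TAP1, which starts beside PSMB9 on the other strand and was named after its values were seen, did not pass at 0.05 (adjusted p = 0.319).

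**Figure D5:**
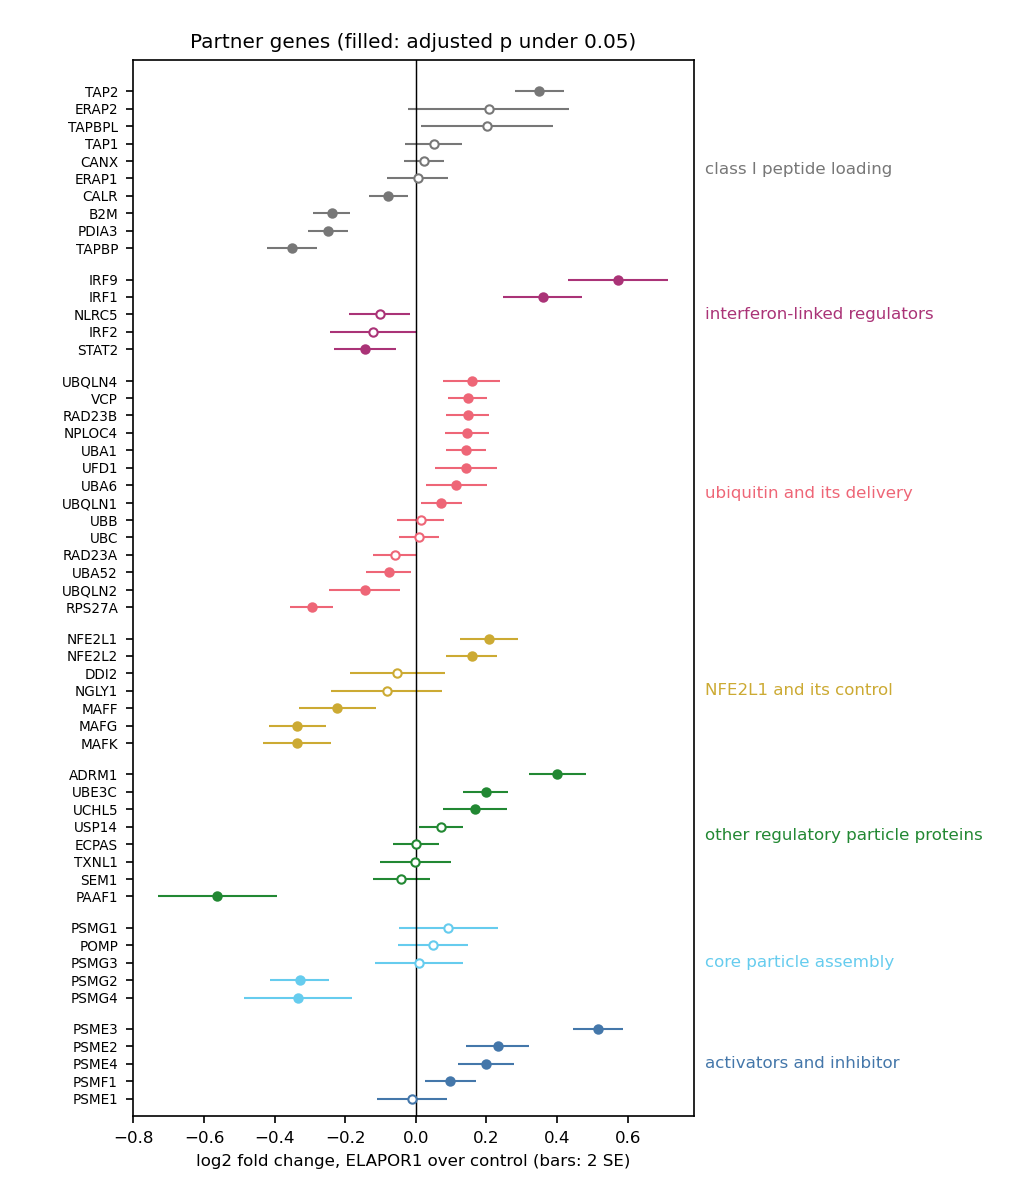
Log2 fold change of the genes in 7 related lists, ELAPOR1 over control, on the horizontal axis; bars span 2 SE each way and filled points passed the adjusted p limit of 0.05. IRF9 lies farthest right at 0.57 and PAAF1 farthest left at -0.56.

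Genes near some members were called more often in 1 direction than in the other, against 22.6% higher and 22.1% lower over all genes. Within 2 Mb of PSMB8 and PSMB9, 108 tested genes had a median log2 fold change of -0.16, with 45 lower and 7 higher. Within 2 Mb of PSMB10, 83 genes had a median of 0.23, with 44 higher and 8 lower. PSMB9 and PSMB10 were both near 0 themselves. Around PSMD3, 26 of 65 neighbours were higher and 11 lower (median 0.12), and around PSMD1 10 of 20 were higher and 2 lower (median 0.15). Around PSMD13, which rose by 0.13, 2 of 50 were higher and 22 lower (median -0.19), and around PSMD2, which rose by 0.19, 6 of 35 were higher and 11 lower (median -0.06). Around PSMD11, 7 of 20 were higher and 2 lower (median 0.10). Around PSMC4, 22 of 68 were higher and 18 lower (median 0.06), and around PSMC2, 7 of 32 were higher and 6 lower (median 0.01). Around PSME3, 33 of 79 were higher and 14 lower (median 0.12). Around NFE2L1 the median of 43 neighbours, 0.25, was above the log2 fold change of NFE2L1 itself. Around PSMG2, 14 of 20 were lower and none higher. The part of these regions in the values of the members was not tested.

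Some values rest on reads that could be shared between genes, and strand use in counting is not given in the sources used here. PSMB8 overlaps PSMB8-AS1 and PSMB9, and PSMB9 overlaps PSMB8 and TAP1. PSMA3 overlaps PSMA3-AS1, PSMD6 overlaps PSMD6-AS1 and PSMD6-AS2, and PSMD9 overlaps WDR66. Among the largest rises, PSMC2 overlaps DNAJC2 and SLC26A5, PSMD1 overlaps HTR2B and PSMD11 overlaps AC005899.8, while PSMD3 and PSMC4 overlap no other gene. Other overlaps include PSMC1 with NRDE2, PSMC5 with FTSJ3, PSMD13 with SIRT3, PSMD5 with CUTALP and PSMA2 with MRPL32. In 8 members (PSMA1, PSMA2, PSMA6, PSMC1, PSMC6, PSMD4, PSMD9 and PSMB10) some or all of the estimated counts were not whole, as arises when reads are divided between genes. Of 30 rows for proteasome pseudogenes, 22 had 0 counts in every library. PSMC1P1, a pseudogene of PSMC1, had 196 to 302 counts per library against 1482 to 1871 for PSMC1, and was higher at 0.43 ± 0.0879 (SE, adjusted p = 1.5e-04). The part of shared reads in the value of PSMC1 was not tested.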

How the data were processed

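RNA of 8 libraries, 4 per group, was sequenced on an Illumina NextSeq, per the labels' protocols. The authors deposited 1 table of estimated counts per gene (RSEM expected counts, unscaled), in which 15.0% of nonzero values were not whole. The submitters' processing notes name cutadapt, STAR, RSEM, DESeq2 and hg38, without versions; the annotation and strand setting are not given in the sources used here. The expected counts were rounded, filtered with filterByExpr, scaled by TMM and compared with edgeR 4.0.16 in R 4.3.3 (robust glmQLFit and glmQLFTest, two-sided, no covariate), with Benjamini-Hochberg adjustment over 13860 genes and a limit of 0.05. The SE is the log2 fold change divided by the square root of F, and intervals are 2 SE each way. Positions and lengths are from GENCODE 29, in which 58597 of 58870 identifiers were found without version. The script was tested on simulated counts. After subtraction of the group mean of each gene, same-numbered control and ELAPOR1 libraries correlated at -0.02 to 0.03. Differently numbered ones correlated at -0.07 to 0.08, and libraries were not treated as pairs.

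Values per library are given for PSMB5 to PSMB10 and, among other called members, the 5 largest rises and all falls. Related lists give the 2 called genes with the largest change; 1 gene of the interferon list and 1 leukocyte marker are not reported here. The members, lists and this rule were chosen with earlier results of these data known. The 21 alternatives cover scaling (DESeq2 size factors, upper quartile, total counts), DESeq2 1.42.0, limma-voom 3.58.1, filters, thresholds, replicate number, GC and length, ELAPOR1 left out and each library left out.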

Additional observations from a re-analysis of the deposited data

Results flagged for a closer look

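PSMB8 in control library 1, at 83.8 CPM, stood apart from the other control libraries, which ran from 89.0 to 90.0 CPM. Of 64 groups of 4 libraries examined, 1 had such a library, where chance alone gives about 3.2. Without control library 1, the log2 fold change of PSMB8 went from 0.10 (adjusted p = 0.0583) to 0.07 (adjusted p = 0.182).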

How the results depend on the processing

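No called result changed direction. Except in the test against a 1.5-fold change, 16 of 17 higher and 2 of 2 lower calls of members were kept in each alternative, and the exception was PSMA3. That test (glmTreat) called 0 members higher and 0 lower (0 also at an unadjusted p under 0.05), where edgeR, DESeq2 and limma-voom each called 17 and 2 at the adjusted limit. Over all genes it called 124 higher and 91 lower, against 3127 and 3066 in the test of any change. Leaving out 1 library at a time gave 16 to 19 members higher and 2 lower, 2805 to 3125 genes higher and 2746 to 3191 lower, a constitutive median of 0.08 to 0.11 and an ELAPOR1 log2 fold change of 11.15 to 11.75. With GC and length trends removed the constitutive median was 0.13, with and without the replicate block. The replicate block alone left 17 members higher and 2 lower, and 2983 genes higher and 2943 lower. PSMB8 passed in 5 of 21 alternatives, among them total counts only (adjusted p = 0.0204), without ELAPOR1 replicate 3 (0.0479) and without ELAPOR1 replicate 4 (0.0347). With the longest transcript as length, the control levels of PSMB8, PSMB9 and PSMB10 were 57.7%, 8.41% and 7.68% of their counterparts. Requiring at least 10 counts in every library left no value for ELAPOR1. PSMB9 and PSMB10, the members with the fewest counts, had the widest intervals, and the part of depth in this was not tested.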
